A study of Ovis aries with 18 samples.

Results

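PPARG, the gene of peroxisome proliferator-activated receptor gamma, was measured in sheep whole blood kept with saline or with one of 2 agonists of Toll-like receptor 4 (TLR4). It was represented by 1 probe, A_70_P051021, among 15008 non-control probes, and is 1 of 944 genes that could be named on the array. All probes of the gene were looked for by probe identifier and by the RefSeq transcript accession in the array annotation, and that search returned this single probe (NCBI gene ID 443513). PPARG was selected because its level was lower with LPS and with MPLA than with PBS on these same arrays. Those differences are therefore given as a description. PPARG was among the probes fitted for these contrasts, but a test of it against PBS would not be independent of the choice and is not given. The sheep RefSeq gene table lists 14 transcripts for PPARG, and 1 probe gives 1 value for whichever of them it detects. The position of the probe in the genome was not analysed here.

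Blood came from 6 healthy adult female sheep, was drawn into heparin, and was split so that each animal supplied all 3 treatments. Portions were incubated outside the animal for 90 minutes with phosphate-buffered saline (PBS, the control), with 1 µg of lipopolysaccharide (LPS, the endotoxin of Gram-negative bacteria) or with 10 µg of monophosphoryl lipid A (MPLA, a form of its lipid A part that lacks a phosphate group). RNA was preserved in PAXgene tubes, amplified and hybridised to a 1-colour Agilent sheep array, giving 18 arrays with 6 per treatment. The labels give these amounts as totals, while the study's methods give the same figures per mL. The amounts of agonist differ, so a difference between MPLA and LPS can come from the agonist or from its amount, and these cannot be told apart.

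PPARG is a nuclear receptor that is activated by fatty acids and related lipids, binds DNA as a partner of the retinoid X receptors, and turns on genes of lipid uptake and storage. It is best known as the master regulator of fat cell formation. In blood and tissue it is found in monocytes and macrophages, where the activated receptor is known to hold back transcription driven by NF-kB, the main inflammatory factor downstream of TLR4. Whole blood is a mixture of cells, and fewer cells of a type and less RNA per cell cannot be told apart in these values.

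Some arrays were brighter than others. Each array was scaled by the 75th percentile of its signal over non-control probes, which lay between 24.7 and 123.1, and the percent of probes that the scanner software marked as well above background lay between 23.9% and 45.1%. No probe was saturated on any array. The arrays lay on 3 slides, with all arrays of an animal on the same slide but for the MPLA array of animal 170. Of the non-control probes, 4122 were well above background on all 6 arrays of at least 1 treatment and were tested, 441 of them with a gene name. Among marker genes, the T cell genes CD3D and CD3E, the monocyte genes CD14, LYZ and CTSS and the red cell gene HBB were well above background on all 18 arrays. Other listed markers were not. The T cell genes CD247, CD4, LCK and CD28 reached this mark on 2, 0, 5 and 1 of the 18 arrays. The neutrophil gene LTF reached it on 5, and the monocyte genes FCGR1A and ITGAM and the housekeeping gene ACTB on 0. No named platelet gene was on the array.

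The PPARG probe was well above background on 18 of 18 arrays. Its processed signal, which is the scanner intensity after background subtraction in arbitrary units, was between 1.78 and 14.6 times the lowest signal marked as well above background on the same array. The error that the software assigned to the single PPARG spot was between 10.1% and 15.1% of the signal, with a median of 11.9%. The probe was therefore measured on every array, although on some arrays it lay near the lower end of the measurable range.

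On the PBS arrays the processed signal of PPARG was 205.8 in animal 71Y, 54.1 in animal 51Y, 251.7 in animal 20, 104.2 in animal 170, 133.5 in animal 80 and 146.7 in animal 65Y. With LPS the signals in the same order of animals were 73.4, 38.4, 92.2, 77.6, 92.3 and 34.2. With MPLA they were 82.6, 60.8, 73.7, 53.7, 60.3 and 69.3. Within each animal the PBS array had the highest signal, except in animal 51Y, where the MPLA array was the brighter one. Between animals the unscaled signals overlapped, since only 2 LPS arrays and 1 MPLA array lay below the lowest PBS array.

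**Figure D1:**
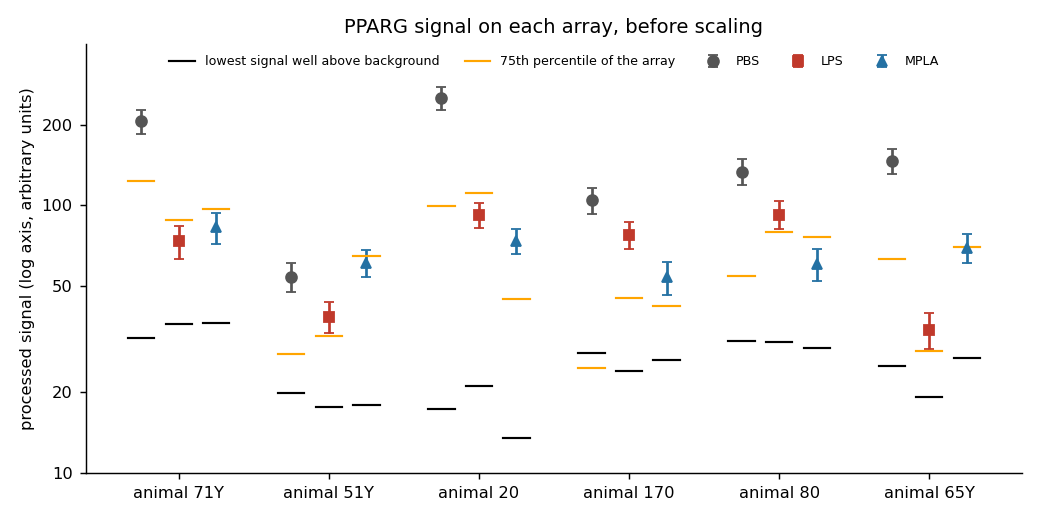
Processed signal of the PPARG probe on each of the 18 arrays (log axis, arbitrary units), grouped by animal, with the scanner software's error of the spot as bars, the lowest signal marked as well above background as a black line and the 75th percentile of the array as an orange line. Every PPARG signal, from 34.2 to 251.7, lies above the black line of its array, and the orange lines range from 24.7 to 123.1.

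Each signal was divided by the 75th percentile of its own array, and log2 of this ratio is called the level below. Levels on PBS arrays were 0.74 in animal 71Y, 0.96 in animal 51Y, 1.34 in animal 20, 2.08 in animal 170, 1.29 in animal 80 and 1.22 in animal 65Y, with a mean of 1.27 ± 0.45 (SD, n = 6). Levels with LPS were −0.26, 0.24, −0.27, 0.78, 0.22 and 0.26 in the same order, with a mean of 0.16 ± 0.39 (SD, n = 6). Levels with MPLA were −0.24, −0.08, 0.73, 0.35, −0.34 and −0.01, with a mean of 0.07 ± 0.40 (SD, n = 6). In the order of the means PBS came first, LPS next and MPLA last, and the means of the last pair lay closer together than the spread between animals.

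The groups nearly separated on this scale. Of the LPS arrays, 5 lay below the lowest PBS level of 0.74, and the exception was the array of animal 170 at 0.78, the animal with the highest PBS level. All 6 MPLA levels lay below the lowest PBS level, the closest by 0.02 in animal 20. That every MPLA array lay below every PBS array was true of 0.124% of the 4021 tested probes with a value on all 18 arrays. PPARG was chosen on these arrays, so nothing is read from that share. The highest PBS level, in animal 170, came from the array with the lowest 75th percentile, 24.7, which was under that array's lowest signal well above background, 28.0.

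**Figure D2:**
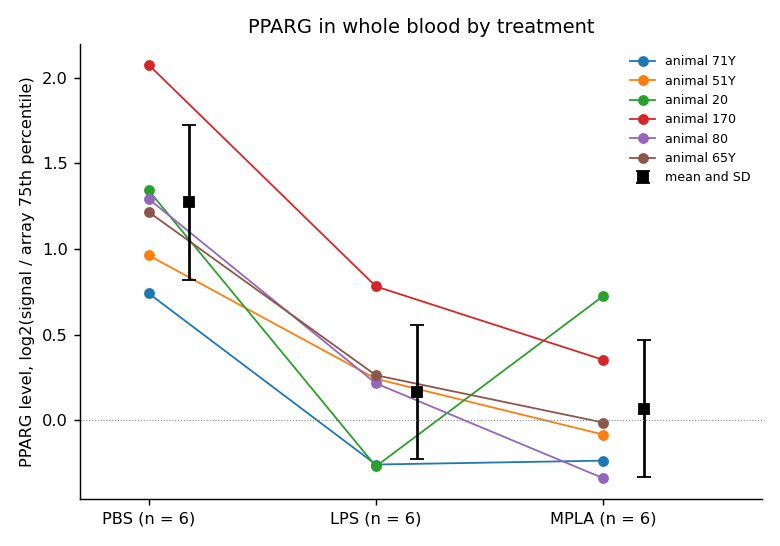
PPARG level (log2 of the signal over the array's 75th percentile) with PBS, LPS and MPLA, with a coloured line per animal and black squares with bars for the mean and SD over 6 animals. Every line runs down from PBS to LPS and every MPLA point lies below the PBS point of its animal, while the lines between LPS and MPLA run in both directions.

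In each animal the level with LPS was set against that animal's own PBS level. The LPS minus PBS difference was −1.00 in animal 71Y, −0.72 in animal 51Y, −1.61 in animal 20, −1.29 in animal 170, −1.08 in animal 80 and −0.95 in animal 65Y. The mean was −1.11 ± 0.31 (SD, n = 6), which puts PPARG with LPS at 46.3% of its PBS level, or 2.16-fold lower. With normexp, another background correction, the mean was −0.58. PPARG was lower with LPS in 6 of 6 animals, and the animals ranged from 32.7% of the PBS level in animal 20 to 60.7% in animal 51Y. The SD of these differences within animals was smaller than the SD of the PBS levels, 0.45.

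PPARG ranked 4 from the lowest of the 4122 tested probes by this mean difference, while the median of all tested probes was 0.00. Limma, a linear model fitted across all tested probes with animal as a block, called 37 probes (0.898%) as different between LPS and PBS at a Benjamini-Hochberg adjusted p under 0.05. It called 3 (0.0728%) as lower with LPS. PPARG was among the probes counted, so this count holds no independent test of it. The count fell when animal 71Y, 20, 80 or 65Y was left out. Nothing is read from these shares for PPARG, which was chosen on the same contrast. The unscaled signal of PPARG was also lower with LPS in all 6 animals, with a mean log2 difference of −1.08 ± 0.69 (SD, n = 6).

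The MPLA minus PBS difference was −0.98 in animal 71Y, −1.05 in animal 51Y, −0.62 in animal 20, −1.72 in animal 170, −1.63 in animal 80 and −1.23 in animal 65Y. Its mean was −1.20 ± 0.42 (SD, n = 6), which puts PPARG with MPLA at 43.4% of its PBS level, or 2.30-fold lower. With normexp the mean was −0.65. PPARG was lower with MPLA in 6 of 6 animals, from 30.3% of the PBS level in animal 170 to 65.2% in animal 20. The smallest difference with MPLA was thus in the animal that had the largest difference with LPS.

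By this mean PPARG ranked 6 from the lowest of the 4122 tested probes, and the median of all tested probes was −0.09. Limma called 42 probes (1.02%) between MPLA and PBS and, PPARG aside, called 9 as lower with MPLA. Nothing is read from the rank or the share for PPARG here either. These counts rest on animal 20, since 332 probes were called without it, 152 of them lower. The unscaled signal of PPARG was lower with MPLA in 5 of 6 animals, with a mean of −1.02 ± 0.65 (SD, n = 6). The exception was animal 51Y at 0.17, whose MPLA array had a 75th percentile 1.22 higher on the log2 scale than its PBS array. Both contrasts use the same 6 PBS arrays, so LPS minus PBS and MPLA minus PBS are not independent of each other.

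Within slides the LPS minus PBS difference averaged −1.15 in animals 71Y and 170, −1.02 in animals 80 and 65Y and −1.17 in animals 51Y and 20. The MPLA minus PBS difference averaged −1.43 in animals 80 and 65Y and −0.83 in animals 51Y and 20, and was −0.98 in animal 71Y. PPARG was thus lower with either agonist on each of the slides. In animal 170, the one animal compared across slides, the difference with MPLA was −1.72, the lowest of the 6.

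The difference between MPLA and LPS was not itself used to choose PPARG and was tested. The choice did use the same arrays and asked for a low level with both agonists. The test is thus not fully independent of the choice. MPLA minus LPS was 0.02 in animal 71Y, −0.33 in animal 51Y, 0.99 in animal 20, −0.43 in animal 170, −0.55 in animal 80 and −0.28 in animal 65Y. The level was lower with MPLA in 4 of 6 animals, close to 0 in animal 71Y and higher in animal 20, where it was 1.99 times that with LPS. The mean was −0.09 ± 0.57 (SD, n = 6), beside a median of −0.09 over all tested probes. Limma gave a 95% confidence interval of −0.59 to 0.40, or 0.663 to 1.32 times the LPS level, with an adjusted p of 0.93.

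An exact two-sided sign-flip permutation test over the 6 animals gave p = 0.75, where the smallest p that its 64 sign patterns allow is 0.031. A difference between 10 µg of MPLA and 1 µg of LPS was therefore not detected for PPARG. The p does not show that the agonists act alike, since the interval above holds both lower and higher levels with MPLA. Limma called 2 probes (0.0485%) in this contrast. Without animal 20 it called 25, and the PPARG mean was then −0.31 with an adjusted p of 0.25. Array brightness moved with the value in that animal, because the 75th percentile of its MPLA array was 1.32 lower on the log2 scale than that of its LPS array and the unscaled PPARG difference was −0.32. The part of brightness in the result was not tested.

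**Figure D3:**
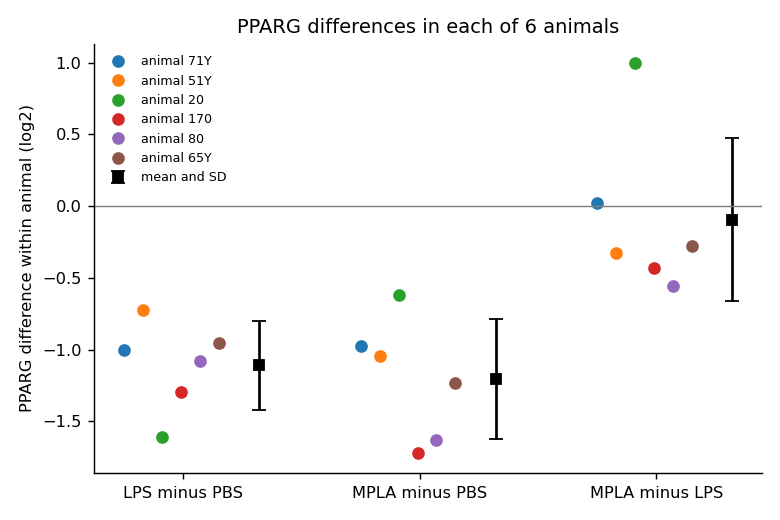
Within-animal differences of the PPARG level (log2) for LPS minus PBS, MPLA minus PBS and MPLA minus LPS, with a coloured point per animal and a black square with a bar for the mean and SD over 6 animals. All points of the first and second contrast lie below 0, from −1.72 to −0.62, whereas MPLA minus LPS spreads from −0.55 to 0.99 around its mean of −0.09.

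The other genes of the PPAR pathway were sparsely covered by this array. Of 84 genes on 5 lists joined (other PPAR family members, PPARG partners and coregulators, PPAR targets in lipid metabolism, sterol efflux genes and adipogenic transcription factors), 16 had a named probe and 4 could be tested. None of these 4 was called by limma in LPS against PBS, in MPLA against PBS or in MPLA against LPS. Of all tested probes 0.898%, 1.02% and 0.0485% were called. None of the 4 had an unadjusted limma p under 0.05, which 159, 280 and 195 of the 4122 tested probes had. With 4 genes nothing is read from these counts. Their median difference was 0.02 with LPS, −0.04 with MPLA and 0.02 between MPLA and LPS, beside medians of 0.00, −0.09 and −0.09 over all tested probes. Neither of the other PPAR genes and no sterol efflux gene was named on the array.

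FABP5, a carrier that delivers fatty acids inside the cell, differed by −0.23 ± 0.68 (SD, n = 6) with LPS and by −0.21 ± 0.69 with MPLA. Its animals lay on both sides of 0, from −1.48 in animal 170 to 0.39 in animal 71Y with LPS. PLIN2, which coats lipid droplets, differed by 0.30 ± 0.99 with LPS and by 0.56 ± 0.85 with MPLA. It was higher with MPLA in 5 of 6 animals, and in animal 170 the difference was 2.09 with LPS and 1.80 with MPLA. Without animal 170 its mean with MPLA was 0.31. PLIN2 did not pass the test (limma adjusted p = 0.998 with LPS and 0.68 with MPLA).

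CPT2, a mitochondrial enzyme of fatty acid oxidation, differed by −0.10 ± 0.74 (SD, n = 6) with LPS and by −0.34 ± 0.53 with MPLA. GATA3, a factor that holds back fat cell formation and also marks T cells, differed by 0.13 ± 0.53 and by 0.14 ± 0.42. In all 4 genes the SD between animals exceeded the size of the mean in both contrasts. The LPS means rest on single animals, since without animal 170 they were 0.01 for FABP5, −0.05 for PLIN2 and 0.17 for CPT2, and without animal 51Y that of GATA3 was −0.03. The MPLA means moved too. Without animal 170 that of FABP5 was −0.06, and without animal 51Y those of CPT2 and GATA3 were −0.17 and 0.01. Without animal 20 those of FABP5 and CPT2 were −0.45 and −0.48. The other listed genes were too dim to test. The lipid genes LPL, ACACA, CPT1A, CPT1B, DGAT1, ME1 and UCP2, the corepressor enzyme HDAC3 and the factor STAT5A were well above background on 0 of 18 arrays. PLIN1 reached it on 1 array, and SCD and UCP1 on 2. Of 31 other nuclear receptors, NR3C1, ESR2 and THRA were on the array and none was tested.

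Monocytes carry PPARG in blood, so their marker genes are given beside it. Of 15 listed monocyte genes 5 were on the array and 3 were tested. CD14, the co-receptor that hands LPS to TLR4, differed by −0.31 ± 0.22 (SD, n = 6) with LPS and by −0.47 ± 0.36 with MPLA, and was lower in 5 of 6 animals in each. LYZ, the antibacterial enzyme lysozyme, differed by −0.10 ± 0.21 and −0.17 ± 0.47, and CTSS, a lysosomal protease, by −0.12 ± 0.61 and −0.41 ± 0.52. Limma called none of them (adjusted p = 0.998 for each with LPS and from 0.65 to 0.73 with MPLA). Of all tested probes 0.898% were called with LPS and 1.02% with MPLA. CD14 with MPLA had an unadjusted limma p of 0.022, and 280 of the 4122 tested probes had one under 0.05. With 3 genes nothing is read from these counts.

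The summed scaled signal of these 3 genes ran from 36.4 to 81.0 on PBS arrays with a median of 55.3, from 42.0 to 67.8 with LPS with a median of 50.5, and from 34.9 to 70.7 with MPLA with a median of 45.6. These ranges overlapped throughout. FCGR1A and ITGAM, the other monocyte genes on the array, were well above background on 0 of 18 arrays. The markers of other cells that could be tested, CD3D, CD3E, CCR3, GNLY and HBB, had mean differences between −0.09 and 0.20 with LPS and between −0.23 and 0.11 with MPLA. None was called, where 0.898% and 1.02% of all tested probes were. The part of cell composition in the PPARG difference was not tested.

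**Figure D4:**
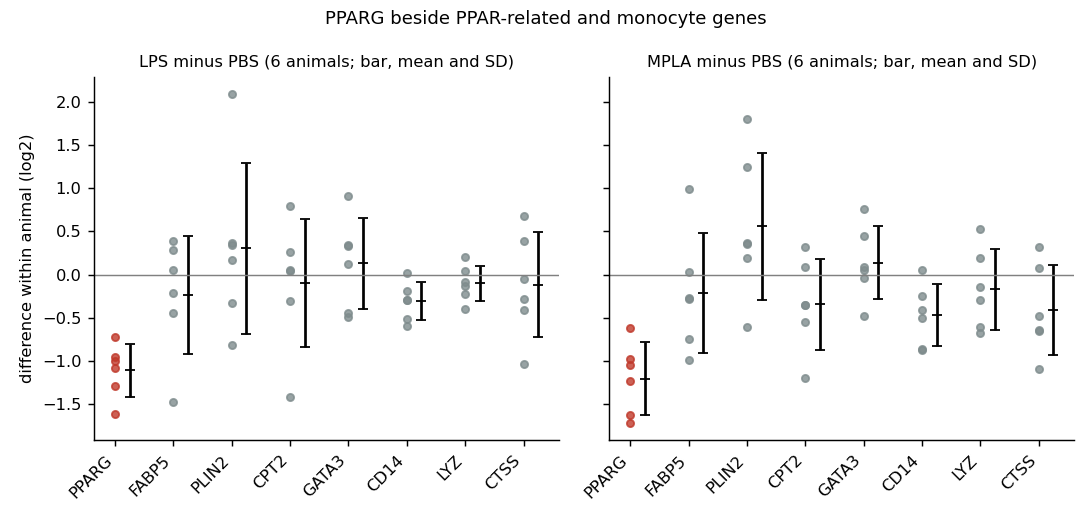
Within-animal differences (log2) for LPS minus PBS and MPLA minus PBS, with a point per animal, for PPARG (red) and for 4 tested PPAR pathway genes and 3 tested monocyte genes (grey), and with black bars for the mean and SD over 6 animals. All PPARG points lie below 0 (−1.61 to −0.72 with LPS, −1.72 to −0.62 with MPLA), while each of the other genes has at least 1 animal above 0.

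Inflammatory genes are given for the same blood. Of 24 listed inflammatory mediators, 14 were on the array and 12 were tested. Among the 12, IL1A, IL6, CSF2 and INHBA could be tested only through their agonist arrays, where they are high. Limma called 9 of the 12 as higher with LPS, where 0.898% of all tested probes were called. It called 10 as higher with MPLA, where 1.02% were, and none as lower with either agonist. Nothing is read from these counts, since they include genes let in by their high agonist signal. The cytokine gene TNF rose by 1.43 ± 0.36 (SD, n = 6) with LPS and by 1.14 ± 0.33 with MPLA. The cytokine gene IL1B rose by 2.50 ± 0.96 and 2.58 ± 1.15, and SOD2, a mitochondrial antioxidant enzyme, by 2.36 ± 0.50 and 2.16 ± 0.71. Each of these was higher in 6 of 6 animals, as were the chemokine gene CXCL1 (2.60 ± 0.65 and 1.77 ± 0.28), the prostaglandin synthase gene PTGS2 (2.64 ± 0.98 and 1.76 ± 1.1) and the anti-inflammatory cytokine gene IL10 (3.09 ± 0.60 and 3.60 ± 0.84). On PBS arrays the cytokine genes IL1A, IL6 and CSF2 never reached the mark for well above background, so only a bound is given, which sets the agonist's mean against the lowest signal above that mark or the probe's own signal, whichever was higher on each array. IL1A was at least 6.46-fold higher with LPS and at least 7.91-fold with MPLA, and IL6 at least 5.49-fold and 3.18-fold. CSF2 was at least 3.74-fold higher with MPLA. Its value with LPS, 2.36-fold, is not a bound, since only 4 of 6 LPS arrays were above the mark. INHBA, an activin subunit, was well above background on 2 of 6 PBS, 3 of 6 LPS and 6 of 6 MPLA arrays. It was called with MPLA alone (1.51 ± 0.71, against 0.37 ± 0.99 with LPS), and these values rest partly on signals below the mark. Without animal 170 its mean with LPS was 0.03. The difference between agonists did not pass the test (limma adjusted p = 0.82). The chemokine gene CXCL8 (1.13 ± 0.88 and 0.55 ± 0.90) was not called, and neither were IL18, the TLR4 signalling kinase gene IRAK4 (0.06 ± 0.51 and 0.05 ± 0.29) and the housekeeping gene GAPDH. GAPDH differed by −0.20 ± 0.08 with LPS, lower in 5 of the 5 animals with a value. With MPLA it differed by 0.23 ± 0.54, and by 0.07 without animal 170. TLR4 itself was well above background on 3 of 18 arrays and was not tested.

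To find the genes whose pattern was most like that of PPARG, the levels of each probe were centred on each animal's mean over its 3 arrays and correlated with PPARG over the 18 arrays. These values are a description without a test, since the arrays of an animal are not independent and all probes share the array scaling. This centring also keeps the difference from PBS by which PPARG was chosen. Genes that rise with both agonists therefore tend to come out as opposite. The most alike probes had no gene name, namely A_70_P025196 with r = 0.94, A_70_P059676 with r = 0.90 and A_70_P053281 with r = 0.86. Among named genes the closest were NUTF2, a nuclear transport factor, with r = 0.84, and IFNAR2, a chain of the type I interferon receptor, with r = 0.73. CMBL, IL18 and PRDM4 followed, each with r = 0.68.

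These named genes differed much less than PPARG. NUTF2 differed by −0.26 with LPS and −0.32 with MPLA, and IFNAR2 by −0.18 with each. IL18, an inflammatory cytokine, differed by −0.44 and −0.48 at the probe in question and by −0.27 and −0.43 at its second probe. Limma called none of the 5 named genes in either contrast, where 0.898% and 1.02% of all tested probes were called. The most opposite patterns among named genes were those of SOD2 with r = −0.96, IL1A with r = −0.94, IL1B with r = −0.93, SNX10 with r = −0.90 and SERPINB2 with r = −0.89. On the PBS arrays IL1A never reached the mark for well above background, and its r rests partly on signals below it.

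The MPLA array of animal 20 stood apart in this pattern as well. With the animal's mean set to 0, the SOD2 level on it was −0.27, while the other 5 MPLA arrays lay between 0.61 and 1.26. After centring on the treatment means too, the named genes most alike were SMAD4 with r = 0.84, TAP2 and PRPF38B with r = 0.80, ALDH2 with r = 0.79 and PGD with r = 0.77. No gene was among the 5 closest under both kinds of centring.

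**Figure D5:**
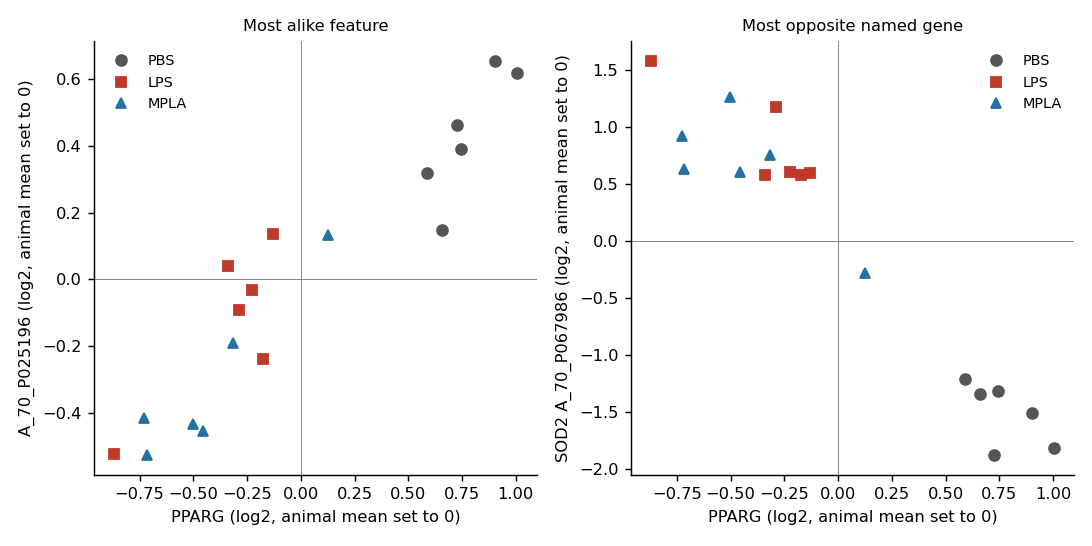
Levels centred on each animal's mean (log2) on the 18 arrays, with PPARG on the horizontal axes and A_70_P025196 (left, r = 0.94) or SOD2 (right, r = −0.96) on the vertical axes, and with symbols for PBS, LPS and MPLA. All 6 PBS arrays lie at the high PPARG end, and the MPLA array of animal 20 lies nearest to them.

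Leaving PPARG aside, limma called 11 probes as lower in a contrast with PBS, 2 with LPS and 9 with MPLA, and none of these could be named. With LPS, A_70_P053281 fell by 1.03 ± 0.43 (SD, n = 6, adjusted p = 0.038) and A_70_P044206 fell by 1.14 ± 0.41 (adjusted p = 0.015). Both calls depend on the animals included, since each was kept in 2 of the 6 fits that left out 1 animal and was lost without animal 71Y, 20 or 80, as also without 51Y for the former and 65Y for the latter. Over all 20 alternatives the former was called in 6 and the latter in 8. With MPLA, A_70_P059676, one of the probes most like PPARG, fell by 1.13 ± 0.55 (adjusted p = 0.035), and this call was kept in 2 of those 6 fits and lost without animal 51Y, 170, 80 or 65Y. A_70_P017136, A_70_P026731, A_70_P031861 and A_70_P059661 were called as lower with MPLA in all 6 of those fits, with means of −2.10, −1.23, −1.33 and −1.22. A_70_P059662, A_70_P056276, A_70_P063266 and A_70_P035666 were kept in 5, 3, 2 and 1 of them, with means of −1.08, −1.88, −1.15 and −1.20.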

How the data were processed

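Whole blood of 6 sheep was measured under PBS, LPS and MPLA on 18 arrays. The authors scanned 1-colour Agilent arrays with Agilent Feature Extraction (version 11.5.1.1 per the file headers) and deposited the intensity of each spot, of which the background-subtracted processed signal was used. A second table deposited by the authors holds ratios, and set against the scanner values each signal proved to be divided by roughly the 75th percentile of its array. On 2 arrays (LPS of animal 170 and MPLA of animal 80) the divisor was 0.805 and 0.793 times the 75th percentile.

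Spots of a probe were averaged after outlier spots were left out, and log2 of the signal over the 75th percentile of the array was used. For a pair of treatments, the 12 arrays were fitted in R 4.3.3 by limma 3.58.1 with animal as a fixed block (eBayes, two-sided tests, Benjamini-Hochberg over 4122 probes). The sample titles give the animal, which pairs the arrays. After the treatment means were removed, the 18 same-animal pairs of arrays had a mean correlation of 0.60 (lowest 0.14). Groups came from the sample titles. Precision is limited by there being 6 arrays per treatment.

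Names came from matching RefSeq accessions to the gene table of ARS-UI_Ramb_v3.0, which named 1265 of the 2200 probes with such an accession. Where a listed gene had several tested probes, the one of highest mean signal stands for it. Named genes were PPARG, every tested gene of the lists, the 5 named genes and 3 unnamed probes most alike and the 5 named genes most opposite, and the other probes called lower (here 11). PPARG, the lists and the tests were chosen with earlier results of these data known. Alternatives covered scaling, background correction, the authors' table, filters, outlier spots, low values, the test, the block, the slide and each animal left out.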

Additional observations from a re-analysis of the deposited data

Results flagged for a closer look

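One PPARG value stood apart from the other animals. MPLA minus LPS was 0.99 in animal 20, while the other 5 animals lay between −0.55 and 0.02, and its gap to the nearest of them exceeded Dixon's 95% critical value for 6 samples. In all, 30 groups of 6 values were examined and 1 was set apart, where chance sets apart about 1 group in 20. In the same animal MPLA minus LPS was −1.86 for SOD2, −1.64 for IL1B and −1.72 for CXCL1, each the lowest of the 6 animals, whereas TNF at −0.11 lay inside the range of the others and IL10 at 1.30 was the highest. The 75th percentile was 44.6 on the MPLA array of animal 20, against 111.0 on its LPS array and 99.3 on its PBS array.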

How the results depend on the processing

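PPARG was lower with LPS than with PBS under all 19 alternatives run, with means from −1.19 to −0.58, and lower with MPLA under all 20, with means from −1.32 to −0.65. The value nearest 0 came in both contrasts from normexp background correction, −0.58 with LPS and −0.65 with MPLA, which starts from the median spot signal and adds an offset of 50, and the cause was not tested. Without it the means nearest 0 were −1.01 and −0.97. Leaving out 1 animal at a time gave −1.19 to −1.01 with LPS and −1.32 to −1.10 with MPLA. The sign of MPLA minus LPS was not stable. It reversed to 0.10 with arrays scaled to their median and, under a pair of alternatives chosen after seeing the data, to 0.064 without scaling and 0.047 without animals 51Y and 170, and leaving out 1 animal gave −0.31 to −0.00. Its adjusted p was between 0.25 and 1.00 over 21 alternatives. Without the replicate block the mean was again −0.09 (limma adjusted p = 0.998), and the methods' t-test gave an adjusted p of 0.92. Scaling to the median moved the median of all tested probes from −0.09 to 0.14 for MPLA minus PBS and from −0.09 to 0.11 for MPLA minus LPS, and normexp moved it to −0.17 for LPS minus PBS and to 0.20 for MPLA minus LPS.

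No tested PPAR pathway gene was called under any alternative. Nothing is read from this, since few of all tested probes were called under those settings. With normexp 2 of 4122 were called for LPS against PBS, and without animal 20, 332 of 4218 for MPLA against PBS. The number of probes called ranged from 2 (normexp) to 48 (without animal 170) for LPS against PBS, from 13 (methods' t-test) to 332 (without animal 20) for MPLA against PBS, and from 0 (normexp among others) to 25 (without animal 20) for MPLA against LPS. The cause was not tested. A mean over several PPARG probes was not run, since the array has 1, and a slide term could not be fitted for LPS against PBS, since these arrays of each animal share a slide. Normexp was planned on the mean spot signal.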
